A study of Mus musculus with 4 samples.

Results

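The genes described here encode 9 enzymes that break down amino acids or make serine: Hal, Kmo, Il4i1, Bcat1, Phgdh, Psat1, Psph, Shmt1 and Shmt2. They were selected on their role in metabolism and on their differences on these same arrays, so their signals are given as a description. Of the 9, 8 could be followed, as they are among the 19938 genes that have a probeset with exactly 1 gene symbol. Il4i1 has 1 probeset, which the platform annotation assigns to 2 genes, and no value is given for it. Each of the 8 was read from its probeset with exactly 1 gene symbol.

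The cells were mouse bone marrow-derived macrophages on 4 Affymetrix whole-transcript arrays, 1 array for each of 4 groups. Stat6-/- cells, from 4get/Stat6-/- mice, were kept for 24 h with IL-4 or in medium, and wild-type cells, from BALB/c mice, were likewise kept for 24 h with IL-4 or in medium. The Stat6-/- mice are without STAT6, which relays the signal of the IL-4 receptor to the nucleus. They also carry the 4get allele, a reporter of IL-4 transcription that the wild-type mice lack. The effects of both alleles, and of any other DNA difference between these mice, such as DNA beside the altered genes, cannot be told apart. All 4 groups had been grown for 7 days with 10% supernatant of L929 cells, a fibroblast line that supplies the growth factor M-CSF, and were sorted for the macrophage protein F4/80. The labels give the IL-4 dose as 10 with a unit of µg/mL in one place and mg/mL in another, and neither the number of mice per array nor their age is stated. With 1 array per group no difference has a replicate check and no test was made. The values below are log2 RMA signals. A gene is said to have risen or fallen where the difference was at least 1 on that scale (2-fold) and the highest of the arrays compared reached a floor of 2.52, the median of the probesets with 1 symbol. In bulk RNA, fewer cells that express a gene and less RNA per cell cannot be told apart.

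Histidase, encoded by Hal, opens the breakdown of histidine by turning it into urocanate. Kynurenine 3-monooxygenase, encoded by Kmo, is a mitochondrial enzyme of tryptophan breakdown that turns kynurenine into 3-hydroxykynurenine. Bcat1 is the cytosolic transaminase of leucine, isoleucine and valine, and Il4i1 is a secreted oxidase of phenylalanine and other amino acids. Serine is made from a glycolytic intermediate by Phgdh, Psat1 and Psph in turn, and Shmt1 in the cytosol and Shmt2 in mitochondria split serine into glycine and a one-carbon unit carried by folate. Macrophages are known to remodel amino acid use when they are activated, and STAT6 is the factor through which IL-4 drives alternative activation.

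Stat6 itself checked the labels of genotype and not those of IL-4. Its signal was 4.25 in Stat6-/- cells with IL-4 and 4.54 in Stat6-/- cells in medium, against 6.68 in wild type with IL-4 and 7.34 in wild type in medium. Both Stat6-/- arrays lay below both wild-type arrays, and all 4 signals were above the floor. The median over all probesets ran from 2.23 to 2.29 on the 4 arrays.

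Neither Hal nor Kmo passed the 2-fold rule with IL-4 in Stat6-/- macrophages, and both fell with IL-4 in wild-type macrophages. Hal had a signal of 6.33 in Stat6-/- cells with IL-4 and 5.52 in Stat6-/- cells in medium. In wild type its signal was 3.34 with IL-4 and 6.07 in medium. The wild-type array with IL-4 thus stood alone at the low end, while the other 3 arrays lay within 1 unit of each other. In wild type Hal fell 6.66-fold with IL-4, a difference of -2.74 that ranked 19th among the decreases of 10282 genes that could pass the rule. In Stat6-/- cells the difference was 0.81, of the opposite sign and inside the rule. It ranked 80th among the increases of 10410 genes that could pass there. With IL-4, Hal was 7.96-fold higher in Stat6-/- than in wild type (2.99), and in medium the difference between the genotypes was -0.56.

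Kmo had a signal of 4.74 in Stat6-/- cells with IL-4 and 5.54 in Stat6-/- cells in medium. In wild type it had 1.58 with IL-4, under the floor, and 4.16 in medium. Both Stat6-/- arrays were above both wild-type arrays, and in each genotype the array with IL-4 was the lower one. In wild type Kmo fell at least 3.11-fold with IL-4, counted against the floor, and by 2.58 in the measured log2 signals. In Stat6-/- cells the difference was -0.80, inside the rule, and ranked 62nd among the decreases of 10410 genes. With IL-4, Kmo was at least 4.66-fold higher in Stat6-/- cells, and in medium it was 2.60-fold higher there (1.38), the 8th largest increase of 10299 genes in that comparison.

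**Figure D1:**
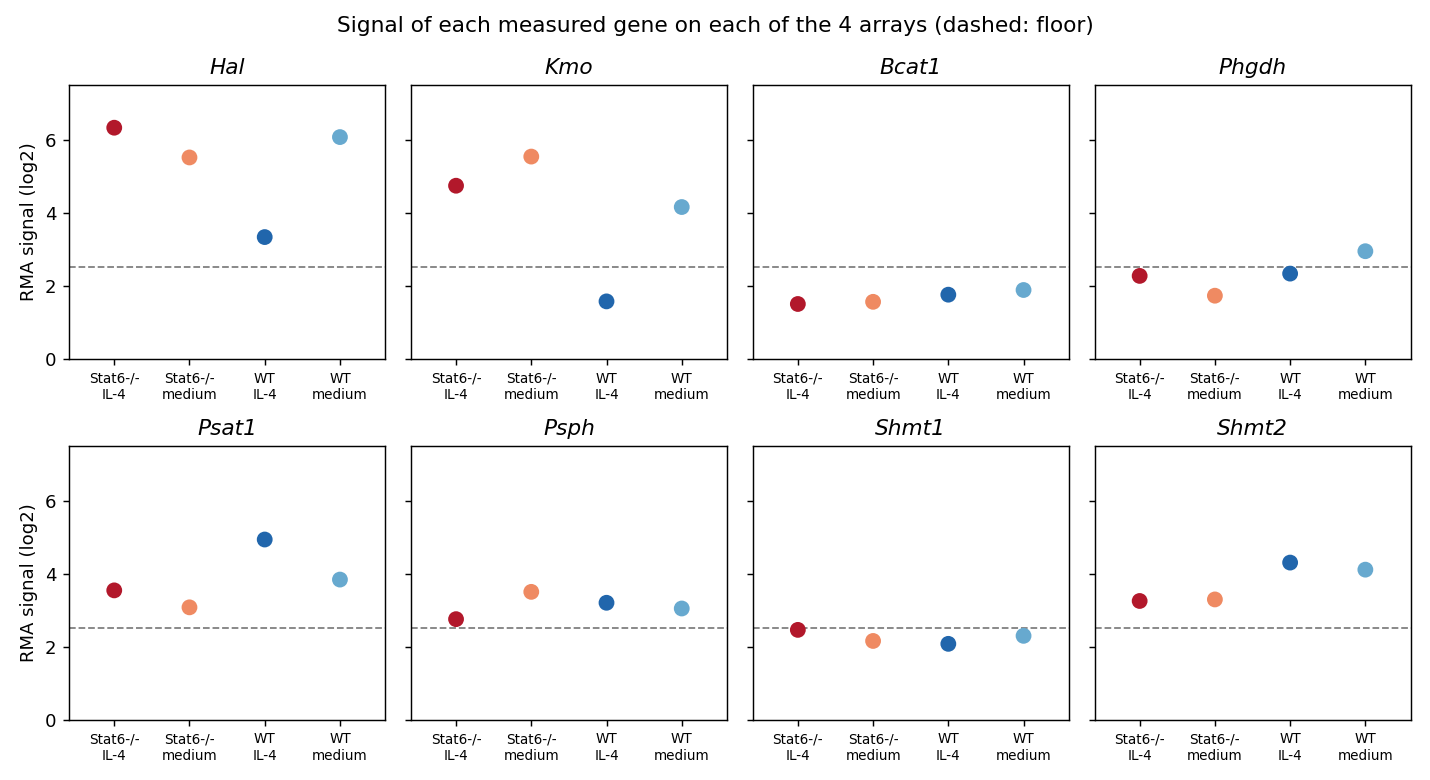
RMA signal (log2, vertical axis) of the 8 measured genes on the 4 arrays, 1 point per array, from left to right Stat6-/- with IL-4, Stat6-/- in medium, wild type (WT) with IL-4 and wild type in medium, with the floor of 2.52 dashed. Hal and Kmo were lowest in wild type with IL-4 (3.34 and 1.58), Psat1 was highest there (4.93), and Bcat1 and Shmt1 stayed under the floor.

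The promoter windows of these genes are shown because both genes had their lowest signal on the same array. They are RefSeq sequences of build GRCm38.p6, the C57BL/6J reference, running from 250 bases before to 50 after the annotated start, and the mice studied here can differ from it. The window of Hal lies at chr10:93488518-93488817 on the plus strand and that of Kmo at chr1:175631943-175632242 on the plus strand. Capitals mark matches, on either strand, to any of 5 motifs. TTCNNNNGAA is the type bound by STAT6, and TTCNNNGAA is called the other STAT type, a name that does not exclude STAT6. TGATGNAA is a form of the amino acid response element. The others are the E-box CACGTG and the CCAAT box, which was added after the windows were seen. Among 32851 windows, 6.95% hold the STAT6 type, 8.3% the other STAT type, 3.97% the amino acid response form, 7.15% the E-box and 37.4% a CCAAT box.
Hal: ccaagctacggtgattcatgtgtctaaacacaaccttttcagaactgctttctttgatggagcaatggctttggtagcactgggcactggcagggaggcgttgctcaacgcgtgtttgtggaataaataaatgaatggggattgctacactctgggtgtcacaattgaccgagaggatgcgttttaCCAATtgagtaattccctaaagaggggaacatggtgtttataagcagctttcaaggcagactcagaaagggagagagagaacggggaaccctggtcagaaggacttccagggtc
Kmo: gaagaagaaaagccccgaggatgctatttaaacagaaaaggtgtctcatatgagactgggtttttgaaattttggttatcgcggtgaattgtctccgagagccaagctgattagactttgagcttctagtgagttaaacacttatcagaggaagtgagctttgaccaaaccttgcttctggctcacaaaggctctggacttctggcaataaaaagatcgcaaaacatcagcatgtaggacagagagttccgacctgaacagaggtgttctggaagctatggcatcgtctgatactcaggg

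The window of Hal holds 1 CCAAT box, at position -64 from the start of transcription, and that of Kmo holds none of the 5 motifs. Each holds 7 CpG dinucleotides, the median of all windows. These are letters found in these windows and say nothing of binding.

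The serine synthesis genes did not move together. Psat1, the transaminase of the second step, had a signal of 3.54 in Stat6-/- cells with IL-4 and 3.08 in Stat6-/- cells in medium. In wild type it had 4.93 with IL-4 and 3.84 in medium. The array with IL-4 was the higher one in each genotype, and both Stat6-/- arrays lay below both wild-type arrays. Psat1 rose 2.14-fold with IL-4 in wild type (1.10), while the difference in Stat6-/- cells was 0.46. With IL-4 it was 2.62-fold lower in Stat6-/- than in wild type (-1.39), and in medium the difference between the genotypes was -0.76. The difference between the IL-4 effects, Stat6-/- minus wild type, was -0.63 for Psat1 and did not pass the rule.

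Phgdh, the dehydrogenase that opens the pathway, was close to background. Its signal was 2.27 in Stat6-/- cells with IL-4 and 1.73 in Stat6-/- cells in medium, against 2.34 in wild type with IL-4 and 2.95 in wild type in medium, the single array above the floor. In medium it was lower in Stat6-/- cells by 1.22, which passed the rule, but the fold counted against the floor was at least 1.34 and lies below it. The difference with IL-4 in wild type was -0.61. Another probeset is annotated to both Phgdh and Gm6756 and was not used, and probes of either may read transcripts of both.

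Psph, the phosphatase of the last step, had 2.75 in Stat6-/- cells with IL-4 and 3.50 in Stat6-/- cells in medium. In wild type it had 3.20 with IL-4 and 3.05 in medium. The lowest and the highest value were thus both Stat6-/- arrays, with wild type between them, and none of the 5 differences passed the rule. The one of largest size between a pair of arrays was -0.75, for IL-4 against medium in Stat6-/- cells. It was the 89th largest decrease of 10410 genes there, and the Psph IL-4 effect in Stat6-/- minus that in wild type was -0.90.

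Of the enzymes that use serine, Shmt2 differed by genotype more than by IL-4, and a part of STAT6 itself in this was not tested. Its signal was 3.25 in Stat6-/- cells with IL-4 and 3.29 in Stat6-/- cells in medium, against 4.30 in wild type with IL-4 and 4.11 in wild type in medium. Both Stat6-/- arrays lay below both wild-type arrays, and IL-4 moved it by -0.04 in Stat6-/- cells and by 0.19 in wild type. With IL-4, Shmt2 was 2.07-fold lower in Stat6-/- cells (-1.05), just past the rule, and in medium the difference was -0.81, inside it. Shmt1 had 2.46 and 2.16 in Stat6-/- cells with IL-4 and in medium, and 2.08 and 2.30 in wild type with IL-4 and in medium. It was under the floor on all 4 arrays, so that no order between them can be read. Bcat1 was also under the floor throughout, between 1.51 and 1.89.

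The windows of Psat1 and Shmt2 are shown as those of the genes of serine metabolism that passed the rule with every array above the floor. The upstream one of the 2 annotated starts of Psat1 gives chr19:15925010-15925309 on the minus strand, and Shmt2 has chr10:127522395-127522694 on the minus strand. Both are written 5′ to 3′ along the gene, with capitals as above.
Psat1: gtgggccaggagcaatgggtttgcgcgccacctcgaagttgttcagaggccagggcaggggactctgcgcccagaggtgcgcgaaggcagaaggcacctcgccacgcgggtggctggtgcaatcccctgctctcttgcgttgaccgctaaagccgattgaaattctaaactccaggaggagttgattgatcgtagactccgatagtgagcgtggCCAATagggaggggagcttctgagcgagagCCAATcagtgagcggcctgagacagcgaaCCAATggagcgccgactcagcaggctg
Shmt2: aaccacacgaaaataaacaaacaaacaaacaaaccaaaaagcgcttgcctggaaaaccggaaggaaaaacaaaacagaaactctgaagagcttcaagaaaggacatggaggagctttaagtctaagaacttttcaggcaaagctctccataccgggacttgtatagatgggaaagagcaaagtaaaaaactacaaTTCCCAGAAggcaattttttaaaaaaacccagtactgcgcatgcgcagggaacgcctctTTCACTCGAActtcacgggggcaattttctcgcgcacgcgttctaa

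The Psat1 window holds 3 CCAAT boxes, at positions -36, -6 and 24 from the start, and 20 CpG dinucleotides, the upper quartile of all windows. The window at its other start holds none of the motifs and 30 CpG dinucleotides. The Shmt2 window holds 1 match to the STAT6 type, TTCACTCGAA, beginning at position 5, and 1 to the other STAT type, TTCCCAGAA, beginning at position -55, and the matches do not overlap. Of the 9 genes, Shmt2 was the one with a match to either STAT type in any of its windows. No window of the 9 held the amino acid response form or an E-box. As above, these are letters found in the windows and say nothing of binding or of why a signal differed.

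**Figure D2:**
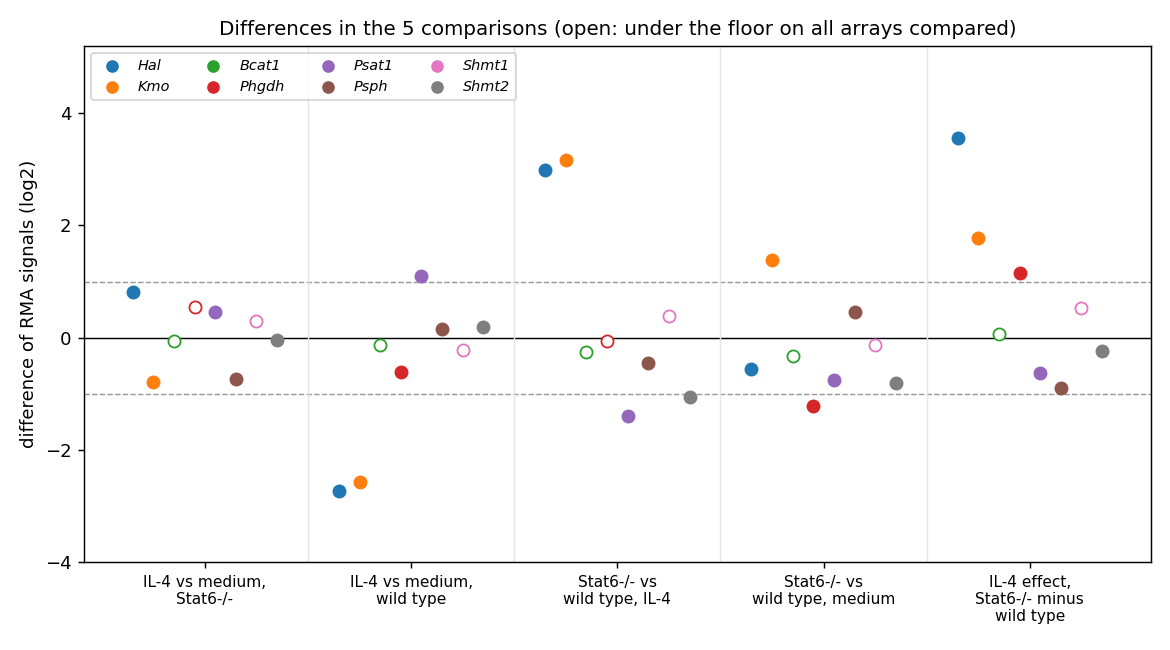
Differences of RMA signals (log2, vertical axis) of the 8 measured genes in the 5 comparisons along the horizontal axis, 1 point per gene, filled where at least 1 of the arrays compared reached the floor and open where none did, with dashed lines at the 2-fold rule. Hal (-2.74) and Kmo (-2.58) stand apart below the other genes for IL-4 in wild type, and above them (2.99 and 3.16) for Stat6-/- against wild type with IL-4.

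Of the 8 measured genes, 5 could pass the rule with IL-4 in Stat6-/- cells, and 0 changed there. Of all 10410 genes that could pass the rule there, 0.24% rose and 0.115% fell. In wild type 6 of the 8 could pass. Of these, 1, Psat1, rose with IL-4 and 2, Hal and Kmo, fell, where 2.96% of 10282 genes rose and 6.78% fell. Between the genotypes with IL-4, 5 of the 8 could pass. Hal and Kmo were higher and Psat1 and Shmt2 lower in Stat6-/- than in wild type, where 4.01% of 10433 genes were higher and 4.83% lower. In medium 6 of the 8 could pass. Kmo was higher and Phgdh lower in Stat6-/- cells, where 0.301% of 10299 genes were higher and 1.15% lower. Since the genes were selected with these differences known, the shares are given for scale and nothing is read from them.

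The difference between the IL-4 effects, Stat6-/- minus wild type, was 3.55 for Hal, the 5th largest increase of 10798 genes, 1.78 for Kmo and 1.15 for Phgdh. Of the 8 measured genes, 6 could pass the rule in this comparison. Over all genes that could pass, 5.77% were higher and 3.2% lower. With signals under the floor raised to it, Hal kept its value of 3.55, while Kmo had 0.84 and Phgdh 0.43, both inside the rule. The 5 comparisons share arrays, so that the low Hal and Kmo signals of the single wild-type array with IL-4 enter 3 of them.

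**Figure D3:**
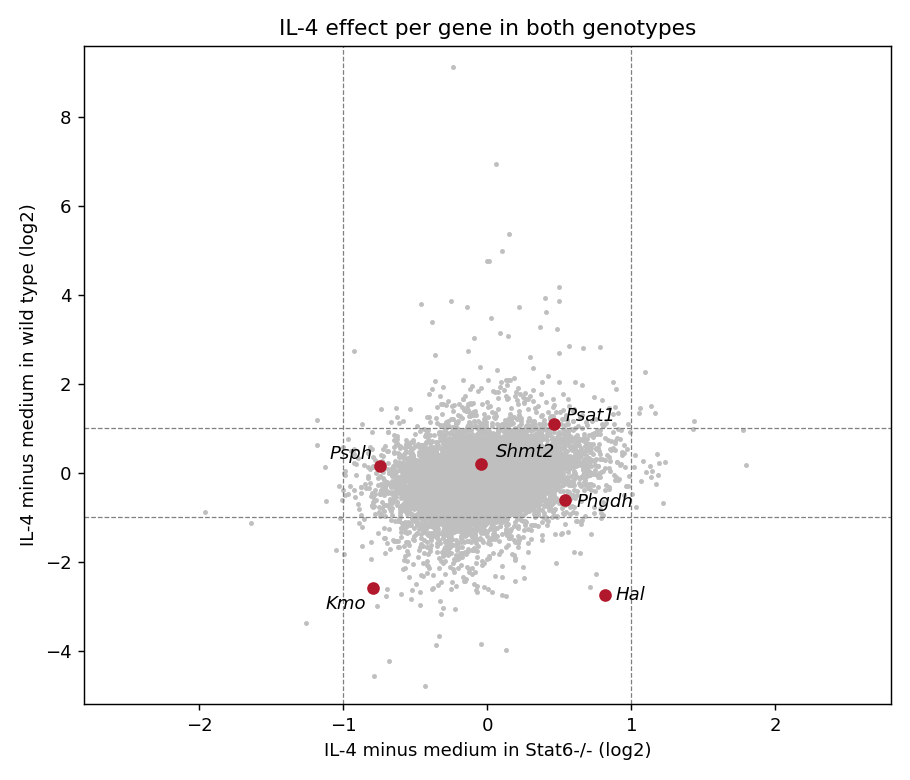
IL-4 minus medium in Stat6-/- cells (log2, horizontal axis) against IL-4 minus medium in wild type (log2, vertical axis) for the 10798 genes above the floor on at least 1 array, in grey, with the 6 of the 8 genes that reached the floor in red and dashed lines at the 2-fold rule. Hal lies at 0.81 and -2.74, Kmo at -0.80 and -2.58, and Psat1 at 0.46 and 1.10.

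The profiles over the 4 arrays, each centred on its own mean, were set against those of 10797 other genes by root mean square distance. Nearest to Hal were Hpgds, which makes prostaglandin D2, at 0.11, Cd14, a co-receptor for bacterial lipopolysaccharide, at 0.25, and the surface lectin Cd93 at 0.30. Hpgds had signals of 7.11 and 6.39 in Stat6-/- cells with IL-4 and in medium, and of 4.41 and 6.97 in wild type with IL-4 and in medium, so it shared with Hal both the low value and the slightly higher Stat6-/- array with IL-4. Nearest to Kmo were the endosomal sodium-proton exchanger Slc9a9 (0.25), Klhl6 (0.26) and the aspartic protease Ctse (0.29). Kmo and Hal lay 0.78 from each other, and distances to Kmo rest in part on its wild-type signal with IL-4, which was under the floor.

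Nearest to Psat1 were Utp18 (0.04), a factor of ribosomal RNA processing, the splicing protein Snrpa1 (0.06) and the nuclear transport GTPase Ran (0.06). Utp18 was under the floor on both Stat6-/- arrays (2.42 with IL-4 and 1.86 in medium). Ran had 5.43 and 4.86 in Stat6-/- cells with IL-4 and in medium, and 6.68 and 5.71 in wild type with IL-4 and in medium. Nearest to Shmt2 were the glycolytic aldolase Aldoa (0.03), the chaperone Hsp90aa1 (0.04) and Arhgap25 (0.05). Nearest to Phgdh were Ahnak2, Pdpn and Esf1, all at 0.06, but the Phgdh profile rests on a single array above the floor. Distances over 4 arrays are a description, and small ones are common among genes that varied little.

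The rest of each pathway was followed through lists drawn up with earlier results of these data known. Of the other genes of histidine breakdown, Uroc1, the next enzyme, ran from 2.16 to 2.59 around the floor, and Amdhd1 and Ftcd were under it on all 4 arrays. In the kynurenine pathway, 9 of 12 genes were under the floor on all arrays, among them Ido1 (1.33 to 1.72) and Tdo2 (1.03 to 1.37), which open it, and Kynu (1.89 to 2.27) and Haao (2.14 to 2.45), which act in turn after Kmo. Kmo was the single one of the 12 that changed in any of the 5 comparisons. At most 3 of the 12 could pass the rule in a comparison, where 0.115% to 6.78% of all genes passed it per direction. Kyat1, a kynurenine aminotransferase, ran from 2.85 to 3.34 and Qprt, which makes the NAD precursor from quinolinate, from 2.09 to 2.92. Of the amino acid oxidases, Dao and Ddo were under the floor on all arrays.

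Breakdown of branched-chain amino acids was read from 22 genes, of which 21 reached the floor and 0 changed in any of the 5 comparisons. Over all genes that could pass, the share past the rule ran from 0.115% to 6.78% per comparison and direction. Beside shares this small, 0 of 21 says little. Bcat2, the mitochondrial transaminase, had 5.95 and 5.82 in Stat6-/- cells with IL-4 and in medium, and 6.28 and 6.15 in wild type with IL-4 and in medium. The closest to the rule was Bckdha, a subunit of the dehydrogenase that follows, with 4.88 in wild type with IL-4 and 5.85 in medium, a difference of -0.96. The list's median difference with IL-4 in wild type was -0.26, against -0.11 over all genes that could pass.

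Of 15 measured genes of folate one-carbon metabolism and glycine cleavage, Shmt2 was the single one that changed. It was lower in Stat6-/- cells with IL-4, where 4.83% of all genes were lower. With IL-4, 9 of the 11 that could pass had a lower signal in Stat6-/- than in wild type, against 50% of all genes, and their median difference was -0.56, against -0.0001 over all genes. In medium it was 10 of 12, against 63.3% of all genes, with a median of -0.30 against -0.11 over all genes. Shmt2, selected on its differences on these same arrays, is counted in both, and nothing is read from these shares. Mthfd2, the mitochondrial partner of Shmt2 in making formate, had 3.10 and 2.81 in Stat6-/- cells with IL-4 and in medium, and 4.00 and 3.17 in wild type with IL-4 and in medium. Its difference between the genotypes with IL-4 was -0.90, inside the rule.

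**Figure D4:**
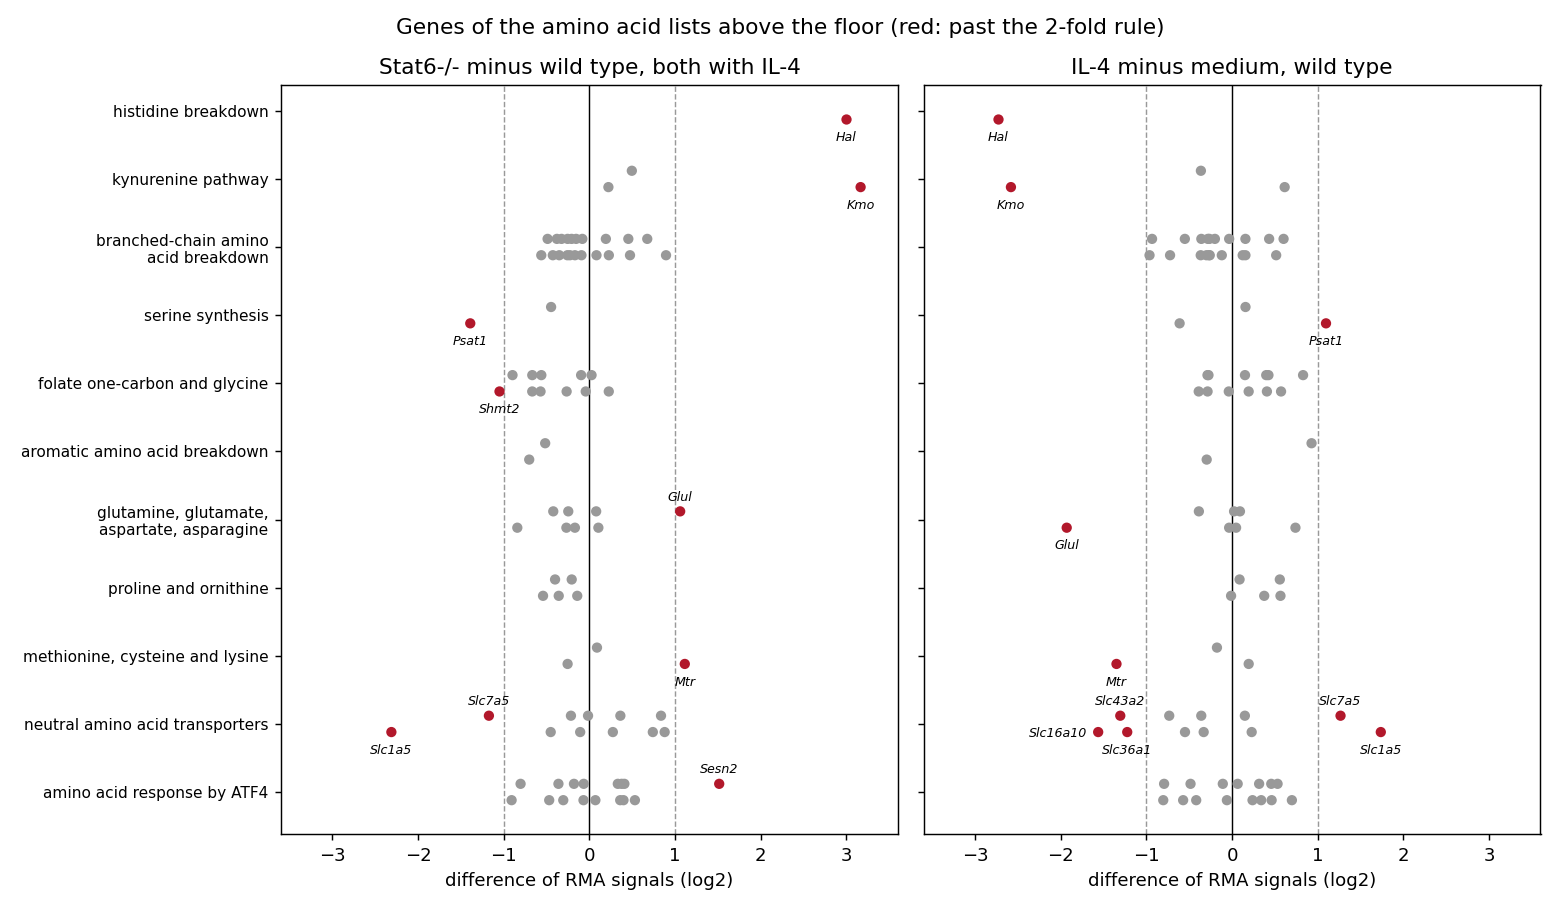
Differences of RMA signals (log2, horizontal axis) of the genes above the floor in each amino acid list (vertical axis), 1 point per gene, for Stat6-/- minus wild type with IL-4 on the left and for IL-4 minus medium in wild type on the right, with genes past the 2-fold rule in red and named. The red points of the transporter list lie on both sides of 0 in wild type, with Slc1a5 (1.74) and Slc7a5 (1.27) on the right.

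Transporters of neutral amino acids moved in both directions with IL-4 in wild type, with 2 of 11 higher and 3 lower, where 2.96% of all genes rose and 6.78% fell. Slc1a5, a glutamine and serine carrier, had 4.19 and 4.52 in Stat6-/- cells with IL-4 and in medium, and 6.50 and 4.76 in wild type with IL-4 and in medium. It rose 3.33-fold in wild type and with IL-4 was 4.97-fold lower in Stat6-/- cells. Slc7a5, the large neutral amino acid exchanger that also carries kynurenine, rose 2.40-fold in wild type and was 2.26-fold lower in Stat6-/- cells with IL-4. The aromatic amino acid carrier Slc16a10 (-1.56), the neutral amino acid carrier Slc43a2 (-1.31) and the lysosomal carrier Slc36a1 (-1.22) fell with IL-4 in wild type. None of these 5 passed the rule with IL-4 in Stat6-/- cells or between the genotypes in medium.

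In the list of glutamine, glutamate, aspartate and asparagine enzymes, Glul, glutamine synthetase, had 8.29 and 9.10 in Stat6-/- cells with IL-4 and in medium, and 7.23 and 9.16 in wild type with IL-4 and in medium. It fell 3.81-fold with IL-4 in wild type and was the single one of 9 measured genes in that list that changed. With IL-4 in wild type 6.78% of all genes fell. Mtr, methionine synthase, fell 2.55-fold with IL-4 in wild type and was 2.16-fold higher in Stat6-/- cells with IL-4. Of 5 measured genes of aromatic amino acid breakdown, Fah, the last enzyme of tyrosine breakdown, passed the rule in the difference between the IL-4 effects (-1.18) and in no other comparison, and of 5 measured genes of proline and ornithine metabolism 0 changed. In the difference between the IL-4 effects 3.2% of all genes were lower. Over the 5 comparisons, 0.115% to 6.78% of all genes passed the rule per direction.

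Psat1, Phgdh, Shmt2 and Mthfd2 are known targets of ATF4, the factor of the amino acid response, and other genes of that response are listed here. A part of ATF4 in the differences above was not tested. Atf4 had 5.26 and 4.78 in Stat6-/- cells with IL-4 and in medium. In wild type it had 5.32 and 4.87 with IL-4 and in medium. These RNA signals were close to equal in both genotypes and do not show ATF4 protein. Of 15 genes of this list that could pass in each genotype, 0 changed with IL-4 in wild type. In Stat6-/- cells 1 of them rose with IL-4, the transcription factor Ddit3 (1.24). Psat1, which rose with IL-4 in wild type (1.10), and Phgdh, Shmt2, Mthfd2 and Asns are counted in other lists. Over all genes, 2.96% rose and 6.78% fell with IL-4 in wild type, and 0.24% rose in Stat6-/- cells. With IL-4, the stress-induced Sesn2 was 2.86-fold higher in Stat6-/- cells, the single one of 16, where 4.01% of all genes were higher. Sesn2 (1.31) and Nupr1 (1.08), another stress-induced gene, were higher in the difference between the IL-4 effects, 2 of 16, where 5.77% of all genes were higher. Asns, asparagine synthetase, also a target, had 3.57 and 3.15 in Stat6-/- cells with IL-4 and in medium, and 4.41 and 3.67 in wild type with IL-4 and in medium, with no difference past the rule.

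Markers of cell types were read on the same arrays. All 9 measured macrophage markers reached the floor, and 4 fell with IL-4 in wild type beside Hal and Kmo, Cd14 (-2.74), Fcgr1 (-1.76), Mertk (-1.36) and Adgre1 (-1.21), which encodes F4/80, where 6.78% of all genes fell. With IL-4, Cd14 (6.14-fold) and Fcgr1 (3.99-fold) were higher in Stat6-/- than in wild type, where 4.01% of all genes were higher, and in medium Marco, a scavenger receptor, was lower there (-1.61), where 1.15% were lower. Cd14, Fcgr1, Marco and Mertk were higher in the difference between the IL-4 effects, where 5.77% were higher. The summed linear signal of the list was 9625 in Stat6-/- cells with IL-4 and 9646 in Stat6-/- cells in medium, against 6959 in wild type with IL-4 and 10720.5 in wild type in medium. Of 6 dendritic cell markers, Flt3, Xcr1, Siglech and Ccr7 were under the floor on all arrays, and Itgax, which macrophages also express, rose with IL-4 in wild type (2.84) and was lower in Stat6-/- cells with IL-4 (-5.56) and in medium (-3.50). The summed linear signal of that list was 40.0 and 31.1 in Stat6-/- cells with IL-4 and in medium, and 930 and 146 in wild type with IL-4 and in medium. Without Itgax, left out after its values were seen, the sum of the other 5 markers, Zbtb46 (2.42 to 2.92) among them, was 20.8 and 19.9 in Stat6-/- cells with IL-4 and in medium, and 20.3 and 19.1 in wild type with IL-4 and in medium. The part of these shifts in the results above was not tested. Hal is known from liver and skin, and 4 of 4 hepatocyte markers and 4 of 4 keratinocyte markers were under the floor on all arrays. T cell, B cell and neutrophil lists had 3 of 4, 3 of 4 and 6 of 9 markers under the floor on all arrays. Basophil and mast cell, and fibroblast lists had 5 of 6 and 2 of 6. Of the rest, Ngp fell (at least 1.21-fold, which lies below the rule) and Postn rose (at least 2.04-fold) with IL-4 in wild type. There 6.78% of all genes fell and 2.96% rose. Postn was also lower in Stat6-/- than in wild type with IL-4 (1.72 against 3.55), where 4.83% of all genes were lower. It was lower in the difference between the IL-4 effects too, where 3.2% were lower.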

How the data were processed

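The values are log2 signals that the authors deposited, made with RMA in Affymetrix Expression Console per the submitters' processing notes, with versions, settings and genome build not given in the sources used here. RMA draws low signals together, so that folds of weak genes are understated. That the log base is 2 was judged from the span of the signals (0.16 to 13.1). The table held 35557 probesets, 21789 with 1 symbol, 1621 with several and 12147 not named in the annotation used here. Each gene was read from its 1-symbol probeset with the highest mean over the 4 arrays. All columns were mapped to a sample.

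Differences were taken between arrays, IL-4 minus medium and Stat6-/- minus wild type, with no test, since each group had 1 array, whose number limits the precision. A fold against an array under the floor was computed against the floor and is written as at least. The genes and lists were chosen with earlier results of these data known. Of 133 pathway symbols 116 matched the array, 1 of them by another symbol, and of 57 marker symbols 52. Named were the measured genes, Stat6, at most 4 genes past the rule per list and comparison, and the 3 genes with the nearest profile to each gene past the rule. As an exception, all transporters past the rule with IL-4 in wild type were named. Other genes of the lists (such as Uroc1, Kyat1, Qprt, Bcat2, Bckdha, Mthfd2, Asns and Atf4) were chosen after their values were seen. The calling rule was tested on simulated arrays with little noise, and with planted changes larger than the rule in genes well above the floor. That test says nothing of genes near the floor or of the noise of these arrays. Alternatives were a shift of all arrays to one median, a repeated quantile normalization, lowess removal of the intensity trend (fraction 0.3), no floor, a floor at the 75th percentile (4.65), signals raised to the floor, the mean over all probesets of a gene, and a 1.5-fold rule. Python 3.11.15, numpy 2.4.6, pandas 2.3.3, statsmodels 0.14.6 and matplotlib 3.10.9 were used.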

Additional observations from a re-analysis of the deposited data

Results flagged for a closer look

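For each of Hal and Phgdh, the IL-4 difference was above 0 in Stat6-/- cells and below 0 in wild type, and the difference between the effects passed the 2-fold rule. For Hal the IL-4 difference was 0.81 in Stat6-/- cells and -2.74 in wild type, which are 3.55 apart. For Phgdh it was 0.54 in Stat6-/- cells, where both signals were under the floor, and -0.61 in wild type, which are 1.15 apart. Neither difference was tested, since each group had 1 array.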

How the results depend on the processing

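Over the 8 alternatives, 304 differences of the 8 genes stayed on their side of the rule, 9 that had not passed it did so, 7 no longer passed it, and none of those that passed changed sign. Part of the 304 was fixed in advance. The mean over all probesets could change nothing, since each gene had 1 probeset with 1 symbol. The count also includes Bcat1 and Shmt1, which were under the floor on every array. The number of genes past the rule for IL-4 in Stat6-/- cells became 3 (Hal, Kmo and Psph) under the 1.5-fold rule. For Stat6-/- against wild type in medium it became 1 (Kmo) with the floor at the 75th percentile, which no Phgdh signal reached, and also 1 with signals raised to the floor, where the Phgdh difference was -0.43, and 4 under the 1.5-fold rule. For the difference between the IL-4 effects it became 1 (Hal) with signals raised to the floor and 5 under the 1.5-fold rule, while quantile normalization applied again added Psph (-1.01). With the floor at the 75th percentile, Kmo in wild type and Shmt2 between the genotypes with IL-4 did not reach it. Quantile normalization applied again moved the median of all genes with IL-4 in wild type to 0.02, against -0.11 as deposited, and gave 403 higher and 488 lower genes, against 304 and 697. There Hal was at -2.54, Kmo at -2.45 and Psat1 at 1.25. For Stat6-/- against wild type in medium it gave 42 higher and 71 lower genes, against 31 and 118, with Kmo at 1.53, and for the difference between the IL-4 effects 461 and 420, against 623 and 346, with Hal at 3.42. No paired analysis was possible because each group had 1 array.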
